A study of Caenorhabditis elegans with 44 samples.

Results

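*prg-1*, *henn-1*, *prde-1* and *parn-1* are 4 protein-coding genes of the piRNA pathway of *Caenorhabditis elegans*. They were taken by gene identifier (WBGene00004178, WBGene00015349, WBGene00008995 and WBGene00010734) from 22014 entries of the mRNA tables and 46927 entries of the small RNA (sRNA) tables. All 4 had a row in each of the 4 deposited tables and passed the filter on low values in each. The rule used gene identifiers and no measured values. In WBcel235, *prg-1* lies on chromosome I from 7585329 to 7588367 on the minus strand, and *henn-1* on chromosome III from 8232651 to 8234611 on the plus strand. *prde-1* lies on chromosome V from 15538244 to 15547086 on the plus strand, and *parn-1* on chromosome V from 12692486 to 12695255 on the minus strand.

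piRNAs of *C. elegans*, also called 21U-RNAs, are made in the germline from many small loci, most of them on chromosome IV, and guide the Piwi Argonaute PRG-1 to transcripts that are to be silenced. PRDE-1 is a nuclear factor needed to transcribe the loci that carry an upstream core motif. PARN-1, a ribonuclease, trims the 3′ ends of the precursors, and HENN-1 adds a methyl group to the 3′ end of the mature piRNA. Recognition by PRG-1 starts the synthesis of secondary 22G siRNAs by RNA-dependent RNA polymerases, and these are loaded onto other Argonautes.

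The upstream motif is shown at a pair of annotated piRNA genes, because loci of this kind are the templates on which PRDE-1 acts. Each line gives the 60 bases before the 5′ end and the 21 bases of the annotated piRNA gene on its own (minus) strand, 5′ to 3′, from RefSeq WBcel235, at chrIV:16435595-16435675 for 21ur-2 and at chrIV:9131059-9131139 for 21ur-3. Capitals mark the core motif CTGTTTCA and the first base of the piRNA.
21ur-2: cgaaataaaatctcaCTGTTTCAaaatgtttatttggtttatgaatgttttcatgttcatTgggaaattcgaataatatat
21ur-3: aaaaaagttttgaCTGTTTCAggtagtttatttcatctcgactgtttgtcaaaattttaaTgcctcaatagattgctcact
The motif began 45 bases before the 5′ end of 21ur-2 and 47 bases before that of 21ur-3. Of 15363 annotated piRNA genes, 33.5% held these exact letters on their own strand in those 60 bases (34.1% on either strand), against 0.330% of 19973 protein-coding genes (0.451% on either strand). Of the piRNA genes, 96.2% began with T and 95.8% were on chromosome IV.

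Libraries were made from L1 larvae hatched overnight without food, in 44 samples of 4 tables. In N2, the standard laboratory strain, mRNA was sequenced from 2 *rrf-3(pk1426); pals-22(pig26)* double-mutant, 3 *pals-22(pig26)*, 3 *rrf-3(pk1426)* and 2 wild-type samples, and sRNA from 3 *pals-22(pig26)* and 3 wild-type samples. In the *otIs356* background, mRNA and sRNA were each sequenced from 3 *vsra-1(tm1637); pals-22(pig26)* double-mutant, 3 *pals-22(pig26)*, 4 *vsra-1(tm1637)* and 4 wild-type samples. All *otIs356* animals, wild type included, carry an integrated repetitive transgene of nuclear TagRFP under a *rab-3* promoter, which is active in neurons. *pig26* is a deletion within *pals-22*, a regulator of the response to intracellular pathogens and of RNAi, and RRF-3 is an RNA-dependent RNA polymerase of the 26G siRNA pathway. *vsra-1* encodes an Argonaute. Whole larvae were lysed, so fewer cells of a type and less RNA per cell cannot be told apart, and the labels do not say that replicates came from separate cultures, so p values measure the spread between these samples only. The question put to these data was how the mRNA of the 4 members, and the sRNAs directed at them, differed between the genotypes.

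The deposited mRNA values summed to 36498609 to 61806727 estimated counts per library in N2 and to 5479218 to 33903511 in *otIs356*. sRNA totals were 11483077 to 43362769 and 7950015 to 21594026 read counts. Levels are given as CPM (counts scaled to the library size, with TMM factors), and fold changes are those of edgeR's quasi-likelihood test, with a gene called at a Benjamini-Hochberg adjusted p under 0.1 over all genes of a comparison. *rrf-3* mRNA was lower in the N2 samples that carry *rrf-3(pk1426)* (1.65 to 1.99 CPM) than in the others (3.87 to 6.29 CPM). *pals-22* mRNA was higher in every sample with *pig26* than in every other sample of its table, and *vsra-1* mRNA of *vsra-1(tm1637)* overlapped wild type (9.32 to 11.7 against 11.6 to 14.8 CPM), so neither transcript checks its allele. In *otIs356* mRNA, wild-type replicate 4 stood apart from the other wild-type samples in the cuticle collagen *sqt-3* (994 against 113 to 179 CPM), as did *vsra-1(tm1637)* replicates 3 and 4 (1321 and 777 against 202 and 243 CPM). The *otIs356* samples with *pig26* were high in it as well, at 376 to 1137 CPM in the double mutant and 906 to 1245 CPM in *pals-22(pig26)*. Results that rest on these 3 libraries are given with and without them, and fits without them set samples with *pig26* that are high in *sqt-3* against samples without *pig26* that are low in it.

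In N2 *rrf-3(pk1426)* larvae, *prg-1*, *prde-1* and *parn-1* mRNA was higher than in wild type by 2.71-fold, 2.13-fold and 2.097-fold, and *henn-1* was not called. In *pals-22(pig26)*, *prg-1* was 1.64-fold and *prde-1* 2.94-fold as high as in wild type, and *henn-1* 0.836-fold. Calls were common in these comparisons: 51.1% of 18986 genes were called in *pals-22(pig26)* against wild type, where 3 of 4 members were (2 higher, 1 lower), and 67.7% in *rrf-3(pk1426)* against wild type, where 3 of 4 members were, all higher. In the double mutant, 4 of 4 members were called against *pals-22(pig26)* (3 higher, 1 lower, background 35.6%) and 0 of 4 against *rrf-3(pk1426)*, where the background was 7.45% (5.25% higher and 2.21% lower). That count of 0 in edgeR was also 0 at an unadjusted p under 0.05 (3578 of 18986 genes), in DESeq2 and in limma-trend. With 4 genes and backgrounds of this size, none of these shares is read as particular to the members.

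In *otIs356* mRNA, edgeR called 0 of 4 members in each of the 5 comparisons, and so did DESeq2 and limma-trend. At an unadjusted p under 0.05 there was 1 member, *parn-1*, in *pals-22(pig26)* against wild type, where 4529 of 16724 genes were. The backgrounds there were 10.9% (5.78% higher and 5.1% lower) for *pals-22(pig26)* against wild type and 10.9% (6.66% higher and 4.26% lower) for the double mutant against *vsra-1(tm1637)*. They were 0.00598% for *vsra-1(tm1637)* against wild type, for the double mutant against *pals-22(pig26)* and for the interaction, 1 of 16724 genes each.

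**Figure D1:**
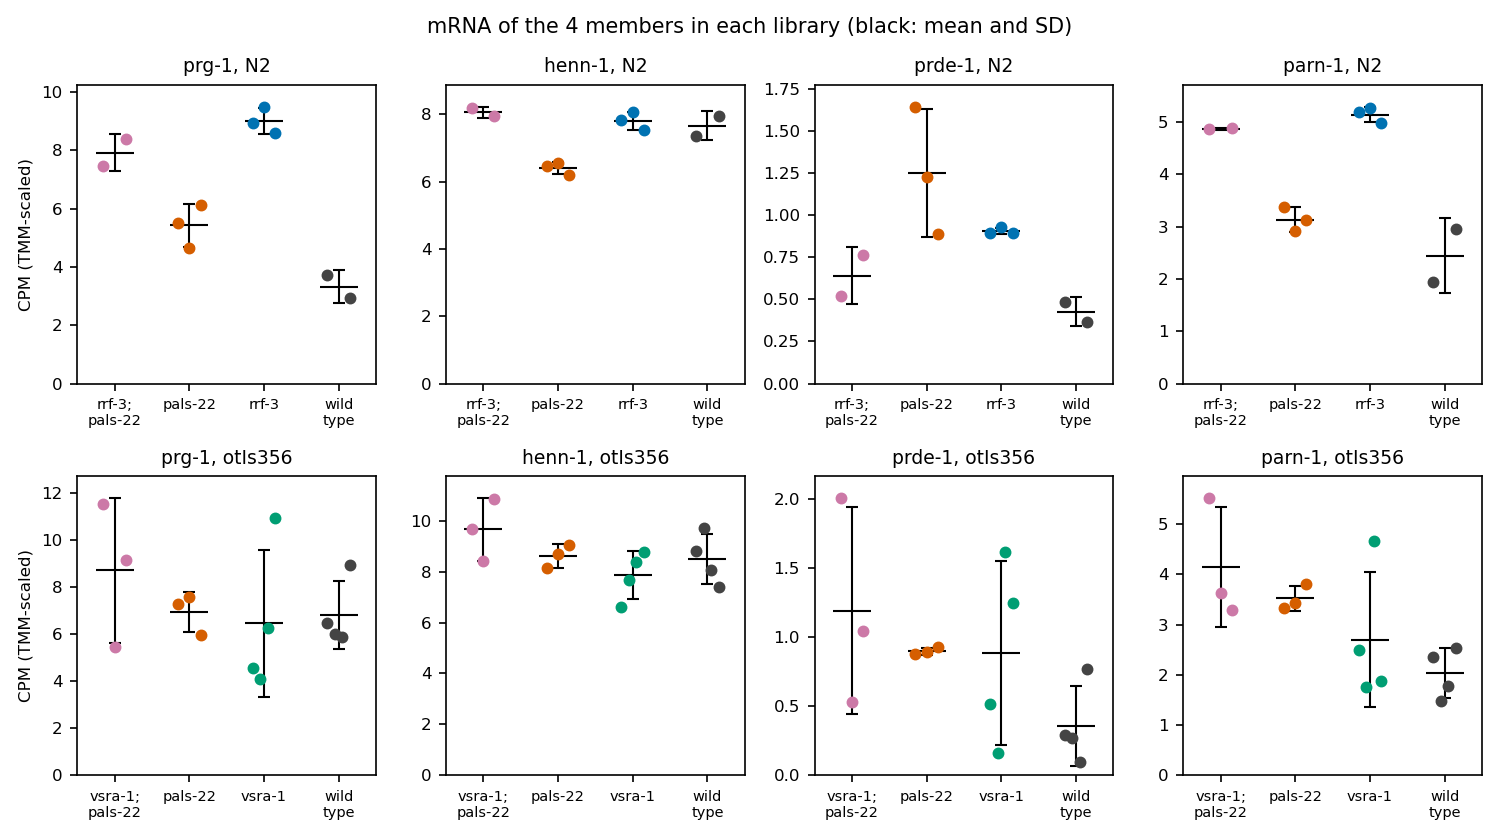
mRNA level in CPM (vertical axes, linear, from 0) of the 4 members in each library of N2 (upper row) and *otIs356* (lower row), with 1 point per library and black marks for the mean and SD of each genotype. In N2, the 3 *rrf-3* libraries lie above both wild-type libraries for *prg-1*, *prde-1* and *parn-1*, while in *otIs356* the genotypes of *prg-1* and *henn-1* overlap.

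*prde-1*, whose product acts in piRNA transcription, had the lowest mRNA level in CPM of the 4 members. In N2 it measured 0.521 and 0.762 CPM in the double mutant, 1.65, 1.23 and 0.887 CPM in *pals-22(pig26)*, 0.897, 0.929 and 0.897 CPM in *rrf-3(pk1426)* and 0.487 and 0.366 CPM in wild type. The *pals-22(pig26)* libraries were spread most widely, their lowest lay just below the *rrf-3(pk1426)* libraries, and both wild-type libraries lay below every mutant library. Behind these levels were 15.8 to 74.7 estimated counts per library. The log2 fold change was 1.55 ± 0.344 (SE, adjusted p = 0.00802) in *pals-22(pig26)* and 1.09 ± 0.339 (SE, adjusted p = 0.0214) in *rrf-3(pk1426)*, each against wild type. The *rrf-3* call was lost without wild-type replicate 2 (0.89, adjusted p = 0.137), a fit in which the lone wild-type library is assumed to vary like the other genotypes, as in every N2 mRNA fit without a wild-type or double-mutant library. Against *pals-22(pig26)*, the double mutant was lower by the test, at −0.97 ± 0.328 (SE, adjusted p = 0.0612). That call ended without *pals-22(pig26)* replicate 1 (−0.72, adjusted p = 0.161), without replicate 2 (−0.98, adjusted p = 0.104), without double-mutant replicate 1 (−0.72, adjusted p = 0.321) and with only these genotypes in the fit (−0.96, adjusted p = 0.129).

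For *prde-1*, the difference between samples with and without *pig26* depended on the *rrf-3* genotype by the test. The interaction term was −2.06 ± 0.472 (SE, adjusted p = 0.0164), with a 95% interval of −3.13 to −0.98. It kept its sign and its call when each of the 10 libraries was left out (−2.35 to −1.80).

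In *otIs356*, *prde-1* mRNA stood at 2.01, 0.5264 and 1.04 CPM in the double mutant, 0.879, 0.889 and 0.926 CPM in *pals-22(pig26)*, 0.516, 0.1600, 1.62 and 1.25 CPM in *vsra-1(tm1637)* and 0.294, 0.269, 0.09296 and 0.772 CPM in wild type. The 3 *pals-22(pig26)* libraries lay close together above all 4 wild-type libraries, the highest of which was replicate 4, and the other genotypes spread more widely. These levels rest on 1.05 to 26.1 estimated counts per library. Wild-type replicate 4 and *vsra-1(tm1637)* replicates 3 and 4, the libraries that stood apart in *sqt-3*, were also the highest of their genotypes in *prde-1*. The difference between *pals-22(pig26)* and wild type, 1.26 ± 0.743 (SE, adjusted p = 0.277), was not called, and it was called without wild-type replicate 4 (1.94, adjusted p = 0.0908) and without all 3 libraries that stood apart (1.93, adjusted p = 0.0433). Hypodermal *dpy-7* was at 98.0 CPM in that wild-type library, within the 70.9 to 138 CPM of *pals-22(pig26)*, and at 9.75 to 11.8 CPM in the other wild-type libraries. The 3 of 4 hypodermis markers tested had a median log2 fold change of 1.5 in *pals-22(pig26)* against wild type, with 0 called, and their part in the *prde-1* difference was not tested. At 1.24 ± 0.709 (SE, adjusted p = 0.503), *vsra-1(tm1637)* did not differ from wild type by the test, with an interval of −0.29 to 2.77. In the double mutant the log2 difference was 0.36 ± 0.796 (SE, adjusted p = 1) from *pals-22(pig26)* and 0.37 ± 0.751 (SE, adjusted p = 0.841) from *vsra-1(tm1637)*.

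*parn-1*, the trimming ribonuclease, was higher in N2 samples with *rrf-3(pk1426)*. Its mRNA was 4.86 and 4.88 CPM in the double mutant, 3.38, 2.91 and 3.12 CPM in *pals-22(pig26)*, 5.19, 5.27 and 4.98 CPM in *rrf-3(pk1426)* and 1.95 and 2.95 CPM in wild type. All 5 libraries that carry *rrf-3(pk1426)* lay above all 5 that do not, and *pals-22(pig26)* overlapped wild type through wild-type replicate 2. The log2 fold change was 1.07 ± 0.174 (SE, adjusted p = 8.28e-04) in *rrf-3(pk1426)* against wild type. In the double mutant against *pals-22(pig26)* it was 0.63 ± 0.166 (SE, adjusted p = 0.0253), a call that was lost without double-mutant replicate 1 (0.64, adjusted p = 0.123). *pals-22(pig26)* against wild type, at 0.36 ± 0.173 (SE, adjusted p = 0.129), was not called, but it was without wild-type replicate 2 (0.68, adjusted p = 0.0189), without *rrf-3(pk1426)* replicate 2 (0.42, adjusted p = 0.0937) and with library totals alone as the scale (0.54, adjusted p = 0.0649). The double mutant differed from *rrf-3(pk1426)* by −0.079 ± 0.166 (SE, adjusted p = 0.832), with an interval of −0.46 to 0.30. The interaction term of −0.44 ± 0.239 (SE, adjusted p = 0.205) was not called, and it was without wild-type replicate 2 (−0.76, adjusted p = 0.0405).

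*parn-1* mRNA in *otIs356* came to 5.52, 3.63 and 3.29 CPM in the double mutant, 3.33, 3.43 and 3.81 CPM in *pals-22(pig26)*, 2.49, 1.76, 4.66 and 1.87 CPM in *vsra-1(tm1637)* and 2.35, 1.48, 1.77 and 2.54 CPM in wild type. Each library with *pig26* lay above each wild-type library, and *vsra-1(tm1637)* replicate 3 lay above the other libraries of its genotype. *pals-22(pig26)* differed from wild type by 0.79 ± 0.357 (SE, adjusted p = 0.178), which did not pass, and passed without *vsra-1(tm1637)* replicate 3 (0.79, adjusted p = 0.0794) and without the 3 libraries that stood apart (0.91, adjusted p = 0.0323). The double mutant differed from *vsra-1(tm1637)* by 0.61 ± 0.361 (SE, adjusted p = 0.344), which likewise passed without *vsra-1(tm1637)* replicate 3 (1.01, adjusted p = 0.0525) and without the 3 libraries (0.90, adjusted p = 0.0646). The log2 difference was 0.40 ± 0.338 (SE, adjusted p = 0.668) for *vsra-1(tm1637)* against wild type and 0.22 ± 0.384 (SE, adjusted p = 1) for the double mutant against *pals-22(pig26)*, and neither was called.

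*henn-1*, the methyltransferase, had the narrowest relative range of mRNA levels of the 4 members in both mRNA tables. In N2 its mRNA was 8.18 and 7.95 CPM in the double mutant, 6.48, 6.54 and 6.18 CPM in *pals-22(pig26)*, 7.83, 8.06 and 7.52 CPM in *rrf-3(pk1426)* and 7.35 and 7.96 CPM in wild type. The *pals-22(pig26)* libraries were the lowest and overlapped no other genotype, and the remaining genotypes overlapped each other. In *pals-22(pig26)* the log2 fold change against wild type was −0.26 ± 0.0833 (SE, adjusted p = 0.0362). This call was lost with library totals alone (−0.075, adjusted p = 0.662), in DESeq2 (−0.22, adjusted p = 0.146), with only these genotypes in the fit (−0.19, adjusted p = 0.161) and without wild-type replicate 2 (−0.21, adjusted p = 0.2015). The double mutant exceeded *pals-22(pig26)* by 0.33 ± 0.0827 (SE, adjusted p = 0.0207), a call lost without double-mutant replicate 1 (0.31, adjusted p = 0.129). *rrf-3(pk1426)* differed from wild type by 0.027 ± 0.0831 (SE, adjusted p = 0.819) under TMM scaling and by 0.49 (adjusted p = 0.00722) with library totals alone, a scale on which the median of all genes shifted by 0.435. The interaction term was 0.31 ± 0.117 (SE, adjusted p = 0.085), and its call was lost in 9 of the 10 fits without a library (0.26 to 0.37).

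For *henn-1* in *otIs356*, mRNA levels were 9.703, 8.42 and 10.9 CPM in the double mutant, 8.13, 8.702 and 9.06 CPM in *pals-22(pig26)*, 6.62, 7.68, 8.37 and 8.796 CPM in *vsra-1(tm1637)* and 8.81, 9.72, 8.09 and 7.39 CPM in wild type. All 4 genotypes overlapped. The interval of the log2 difference was −0.34 to 0.38 for *pals-22(pig26)* and −0.44 to 0.22 for *vsra-1(tm1637)*, each against wild type, with adjusted p = 0.947 and 0.803. The double mutant differed by 0.16 ± 0.177 (SE, adjusted p = 1) from *pals-22(pig26)* and by 0.30 ± 0.166 (SE, adjusted p = 0.316) from *vsra-1(tm1637)*.

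*prg-1*, the Piwi Argonaute itself, was ordered by genotype in N2 without overlap. It measured 7.47 and 8.38 CPM in the double mutant, 5.51, 4.65 and 6.12 CPM in *pals-22(pig26)*, 8.94, 9.497 and 8.598 CPM in *rrf-3(pk1426)* and 3.71 and 2.93 CPM in wild type. The *rrf-3(pk1426)* libraries were the highest, then the double mutant, then *pals-22(pig26)*, then wild type, with no overlap between neighbours in this order. Against wild type the log2 fold change was 1.44 ± 0.154 (SE, adjusted p = 8.95e-05) in *rrf-3(pk1426)* and 0.71 ± 0.152 (SE, adjusted p = 0.0068) in *pals-22(pig26)*. Both calls held in each of the 10 fits without a library, at 1.27 to 1.61 and 0.54 to 0.89. The double mutant lay above *pals-22(pig26)* by 0.54 ± 0.144 (SE, adjusted p = 0.0261), which was no longer called without double-mutant replicate 2 (0.49, adjusted p = 0.108). It did not differ from *rrf-3(pk1426)* by the test, at −0.19 ± 0.144 (SE, adjusted p = 0.525). The interaction term was −0.90 ± 0.209 (SE, adjusted p = 0.0172), and it held in each fit without a library (−1.07 to −0.72).

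*prg-1* mRNA in *otIs356* read 11.5, 5.44 and 9.15 CPM in the double mutant, 7.29, 7.56 and 5.97 CPM in *pals-22(pig26)*, 4.56, 4.08, 6.28 and 10.9 CPM in *vsra-1(tm1637)* and 6.46, 5.99, 5.86 and 8.93 CPM in wild type. The highest *vsra-1(tm1637)* and wild-type libraries were each replicate 4, and all genotypes overlapped. *pals-22(pig26)* differed from wild type by 0.025 ± 0.341 (SE, adjusted p = 0.971). The interval of −0.71 to 0.76 includes the log2 fold change of 0.71 seen for *pals-22(pig26)* in N2. The difference between the 2 backgrounds was not tested. The double mutant against *vsra-1(tm1637)*, at 0.41 ± 0.343 (SE, adjusted p = 0.527), was called only without the 3 libraries that stood apart (0.96, adjusted p = 0.0288). *vsra-1(tm1637)* against wild type was at −0.071 ± 0.317 (SE, adjusted p = 0.945) and the double mutant against *pals-22(pig26)* at 0.32 ± 0.366 (SE, adjusted p = 1).

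**Figure D2:**
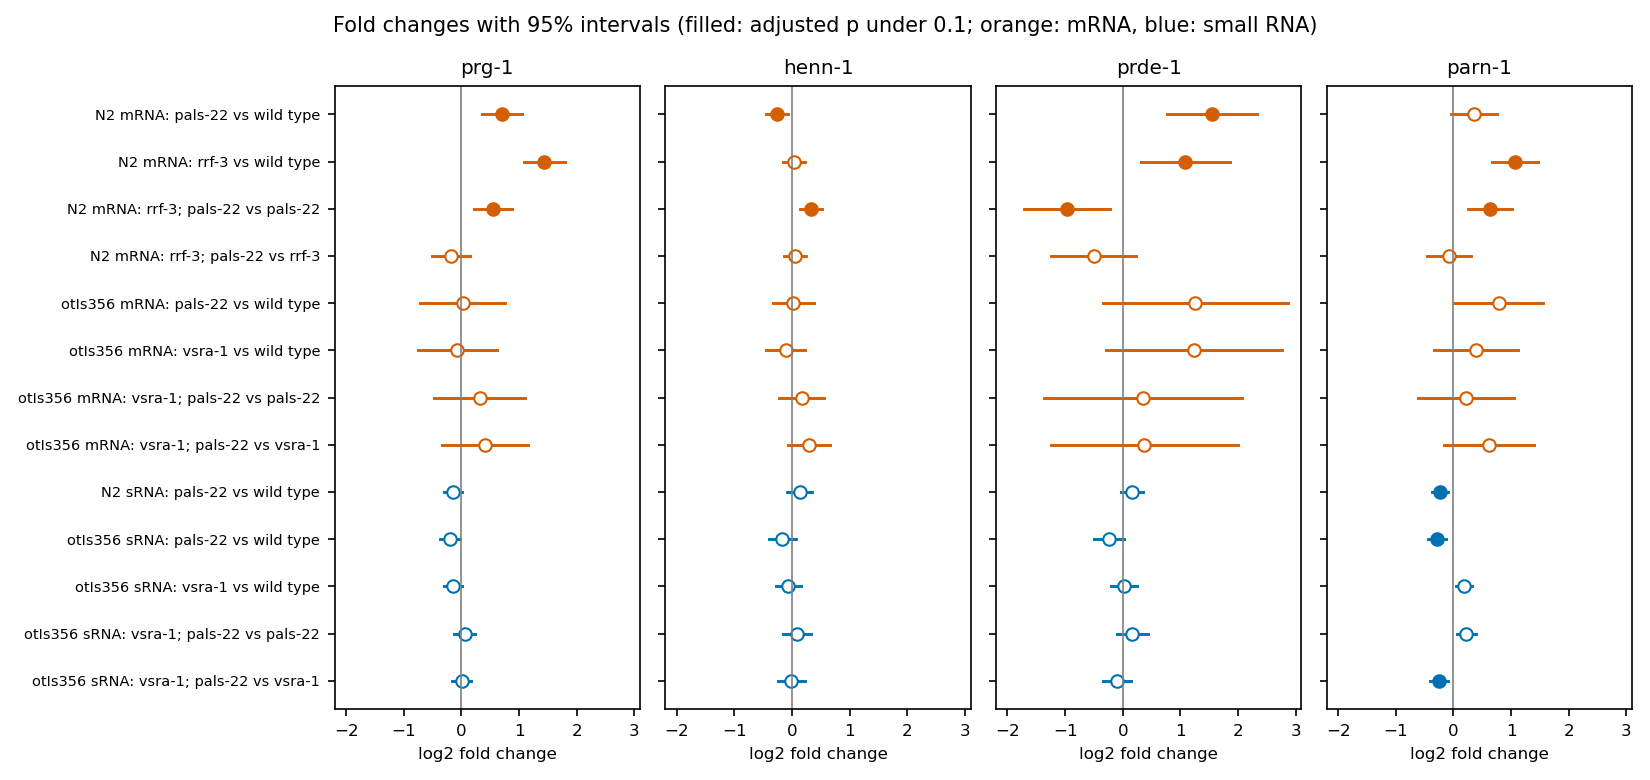
Log2 fold change (horizontal axes) of the 4 members in 13 comparisons (rows), as points with their 95% intervals, filled where the adjusted p was under 0.1, in orange for mRNA and blue for sRNA. Filled mRNA points occur in the N2 table alone, and filled sRNA points for *parn-1* alone, at −0.23, −0.29 and −0.25.

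The overlap of these genes with their neighbours was small in transcript sequence. Of the 31-base words of the longest transcript, 1.29% of *prg-1* also occurred in its paralogue *prg-2*, 3.87% of *henn-1* in C02F5.14, 1.39% of *parn-1* in *frpr-15* and 0 of *prde-1* elsewhere. *henn-1* and *parn-1* overlap those genes on the opposite strand at their ends, *henn-1* also overlaps *fbxl-1* on its own strand, *prg-1* overlaps D2030.12 by 12 bases, and *glb-14* lies on the opposite strand within the span of *prde-1*. With 22-base words, near the length of an siRNA, the shares were 5.41% for *prg-1*, 4.47% for *henn-1*, 1.90% for *parn-1* and 0 for *prde-1*.

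The sRNA tables count reads antisense to each gene, the orientation of siRNAs made on a transcript. The table does not state this, but *mir-1* was listed at 0 to 0.222 RPM (reads scaled to the library total) over the *otIs356* libraries, while T09B4.14 on the other strand held at least 73000 RPM. Mature piRNAs, which have the sense of their loci, are thus not measured here: 21ur-2 and 21ur-3 held 0 reads in every sRNA library, which allows up to 0.377 RPM in the shallowest library. The 15363 piRNA entries together held 0.0163% to 0.0392% of all reads.

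*prg-1* and *parn-1* were among the protein-coding genes with most sRNAs, while their mRNA lay below the median of such genes in N2. Per kilobase of transcript, wild-type sRNA of *prg-1* exceeded that of 98.1% of 19985 protein-coding genes in N2 and 98.4% in *otIs356*. For *parn-1* the shares were 98.2% and 98.1%. *henn-1* and *prde-1* lay lower, above 85.8% and 82.5% in N2. In mRNA per kilobase, the order in N2 wild type was *henn-1* (5.19 CPM per kb), *parn-1* (1.39), *prg-1* (1.25) and *prde-1* (0.243), and in *otIs356* wild type *henn-1* (5.76), *prg-1* (2.55), *parn-1* (1.16) and *prde-1* (0.203). Of 19725 protein-coding genes, *henn-1* exceeded 54.1% in N2 mRNA, *parn-1* 37.7%, *prg-1* 36.6% and *prde-1* 21.8%.

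*parn-1* was the member whose sRNAs were called, and they were lower with *pig26*. In N2 its sRNA level was 142, 145 and 139.8 CPM in *pals-22(pig26)*, against 170.2, 161 and 169 CPM in wild type. In *otIs356* it was 136, 125 and 142 CPM in the double mutant, 119.9, 112 and 112 CPM in *pals-22(pig26)*, 147, 158, 171 and 161 CPM in *vsra-1(tm1637)* and 143, 139, 131 and 146 CPM in wild type. *pals-22(pig26)* lay below wild type without overlap in both tables, and the double mutant below *vsra-1(tm1637)*. The log2 fold change of *pals-22(pig26)* against wild type was −0.23 ± 0.0657 (SE, adjusted p = 0.0162) in N2 and −0.29 ± 0.0727 (SE, adjusted p = 0.0114) in *otIs356*, and the double mutant differed from *vsra-1(tm1637)* by −0.25 ± 0.0722 (SE, adjusted p = 0.0295). These were the 1 of 4 members called, where the backgrounds were 39.1% (18.3% higher and 20.8% lower), 26.3% (11.7% higher and 14.6% lower) and 22.6% (12.1% higher and 10.5% lower). With library totals alone as the scale, the N2 value turned to 0.11 (adjusted p = 0.204), against a median shift of 0.35 over all genes, and the *otIs356* values were −0.20 (adjusted p = 0.359) and −0.26 (adjusted p = 0.245). The last call was also lost without the filter (−0.28, adjusted p = 0.155), with only the compared genotypes in the fit (−0.24, adjusted p = 0.117) and without double-mutant replicate 2 (−0.19, adjusted p = 0.140).

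*parn-1* sRNA was not called in *vsra-1(tm1637)*. Its log2 difference was 0.19 ± 0.0667 (SE, adjusted p = 0.177) against wild type, and the double mutant at 0.22 ± 0.0772 (SE, adjusted p = 0.114) against *pals-22(pig26)*. Both pairs of genotypes were free of overlap. DESeq2 called both (0.20, adjusted p = 0.0515, and 0.23, adjusted p = 0.0411), limma-trend called the double mutant (0.22, adjusted p = 0.0914), and so did edgeR without double-mutant replicate 2 (0.28, adjusted p = 0.0795).

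**Figure D3:**
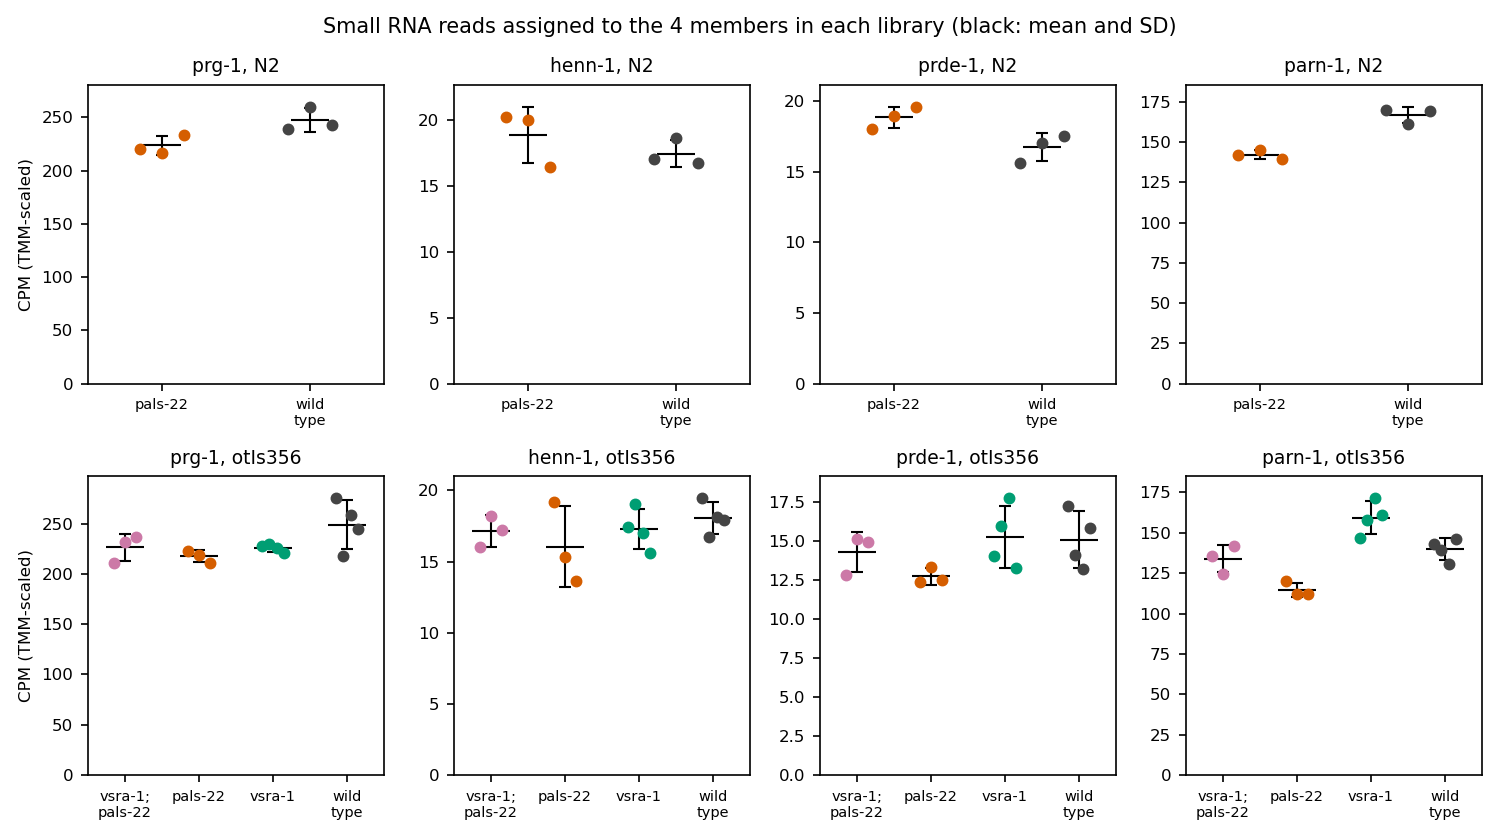
Antisense sRNA level in CPM (vertical axes, linear, from 0) of the 4 members in each library of N2 (upper row) and *otIs356* (lower row), with 1 point per library and black marks for the mean and SD of each genotype. *parn-1* lies lower in *pals-22(pig26)* than in wild type in both rows, and no other member was called.

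sRNAs against *prg-1* were close in level in all 20 libraries. In N2 they measured 220.4, 217 and 234 CPM in *pals-22(pig26)*, against 239, 260.1 and 243 CPM in wild type. In *otIs356* they measured 211, 232 and 236 CPM in the double mutant, 223, 219 and 211 CPM in *pals-22(pig26)*, 228, 229, 226 and 220.3 CPM in *vsra-1(tm1637)* and 275, 218, 259 and 244 CPM in wild type. The *pals-22(pig26)* libraries lay below wild type in N2 and overlapped wild-type replicate 2 in *otIs356*. The differences, −0.15 ± 0.0716 (SE, adjusted p = 0.141) and −0.19 ± 0.0785 (SE, adjusted p = 0.102), did not pass. The N2 value changed sign with library totals alone (0.20, adjusted p = 0.0328), and the *otIs356* value passed in DESeq2 (adjusted p = 0.0927), in limma-trend (adjusted p = 0.0942) and without wild-type replicate 2 (−0.25, adjusted p = 0.0281). For *vsra-1(tm1637)* against wild type the log2 difference was −0.14 ± 0.0723 (SE, adjusted p = 0.368), and for the double mutant it was 0.055 ± 0.0835 (SE, adjusted p = 0.804) against *pals-22(pig26)* and 0.0021 ± 0.07801 (SE, adjusted p = 0.993) against *vsra-1(tm1637)*.

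*henn-1* and *prde-1* drew far fewer sRNAs than *prg-1* and *parn-1*. *henn-1* sRNA was 20.2, 20.03 and 16.4 CPM in N2 *pals-22(pig26)*, against 17.01, 18.6 and 16.7 CPM in wild type. In *otIs356* it was 16.02, 18.2 and 17.2 CPM in the double mutant, 19.2, 15.3 and 13.7 CPM in *pals-22(pig26)*, 17.4, 19.02, 17.04 and 15.6 CPM in *vsra-1(tm1637)* and 19.5, 16.8, 18.2 and 17.95 CPM in wild type. Every pair of genotypes overlapped, and the 5 comparisons without the interaction gave adjusted p from 0.332 to 0.966. *prde-1* sRNA came to 18.1, 18.97 and 19.6 CPM in N2 *pals-22(pig26)*, against 15.7, 17.03 and 17.6 CPM in wild type, and did not overlap. In *otIs356* it was 12.8, 15.1 and 14.9 CPM in the double mutant, 12.3, 13.3 and 12.5 CPM in *pals-22(pig26)*, 14.04, 15.96, 17.7 and 13.3 CPM in *vsra-1(tm1637)* and 17.3, 14.1, 13.2 and 15.8 CPM in wild type. The signs of *pals-22(pig26)* against wild type differed between the tables, 0.17 ± 0.0857 (SE, adjusted p = 0.168) in N2 and −0.24 ± 0.119 (SE, adjusted p = 0.19) in *otIs356*, and neither passed. The difference between the tables was not tested. In N2, both *henn-1* (0.48, adjusted p = 0.00107) and *prde-1* (0.51, adjusted p = 3.90e-04) were called higher with library totals alone, where the median of all genes shifted by 0.35. In *otIs356*, *henn-1* was called lower in *pals-22(pig26)* than in wild type without *pals-22(pig26)* replicate 1 (−0.29, adjusted p = 0.0656).

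No member was called in the remaining sRNA comparisons of *otIs356*, *vsra-1(tm1637)* against wild type, the double mutant against *pals-22(pig26)* and the interaction. The backgrounds were 4.96% (2.66% higher and 2.3% lower), 10% (6.69% higher and 3.34% lower) and 8.9% (5.76% higher and 3.15% lower) in that order. At an unadjusted p under 0.05 there were 1, 1 and 0 members, against 1263, 1479 and 1421 of 8042 genes. DESeq2 called 1, 1 and 0 members, and limma-trend 0, 1 and 0.

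The genes whose mRNA pattern was most like each member were named by the mean of its 2 Pearson correlations in log2 CPM, over the 10 N2 and the 14 *otIs356* libraries, among 16619 genes. For *prg-1* these included *hcp-4* and *dna-2* (mean r = 0.922 and 0.919), which encode a centromere protein and a helicase-nuclease of DNA replication. For *parn-1* they were ZC247.2, *fbxa-101* and F17C11.11 (0.942, 0.940 and 0.931), for *prde-1* R07B1.13, M03F4.6 and *pes-8* (0.922, 0.896 and 0.892), and for *henn-1* C27D8.4, *tbg-1*, which encodes γ-tubulin, and *ari-1.2* (0.804, 0.788 and 0.771). Among the members, *prg-1* and *parn-1* had r = 0.883 in N2 and 0.335 in *otIs356*, and *prde-1* and *henn-1* −0.596 and 0.307. These are descriptions over libraries that share genotype and depth.

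Beyond the members, 24 further genes of piRNA biology were listed, of which 23 were matched and tested in every table. In N2 mRNA, 16 of 23 were higher and 2 lower in *rrf-3(pk1426)* than in wild type (background 31.9% higher and 35.8% lower), with a median log2 fold change of 1.29, against −0.022 over all genes. The Vasa-like P granule helicase gene *glh-1* stood at 20.6 to 23.1 CPM in *rrf-3(pk1426)* and at 3.28 to 4.12 CPM in wild type, 2.57 ± 0.118 (SE, adjusted p = 4.83e-06) apart on the log2 scale. *tofu-4*, of the complex that transcribes piRNA loci, differed by 2.36 ± 0.229 (SE, adjusted p = 5.69e-05), the P granule gene *deps-1* by 2.48 ± 0.252 (SE, adjusted p = 7.05e-05) and *pid-2*, needed for piRNA-directed silencing, by 1.33 ± 0.154 (SE, adjusted p = 1.33e-04). By role, 7 of 7 genes of paralogues, partners and granules rose, as did 2 of 4 of transcription, 6 of 11 of precursor processing and 1 of 1 from piRNA screens, while 2 of the 11 processing genes fell.

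In N2 *pals-22(pig26)* against wild type, 10 of the 23 were higher and 1, *snpc-4*, was lower (background 23.3% higher and 27.8% lower), with a median of 0.68, against −0.023 over all genes. *snpc-4*, named after its values were seen as the 1 gene of that count, encodes a subunit of the small nuclear RNA activating complex that binds piRNA loci. In the double mutant, 10 were higher than in *pals-22(pig26)* and 0 lower (background 18.5% and 17%), led by *glh-1* (0.76 ± 0.104 SE, adjusted p = 0.00193), *pid-2* (0.68 ± 0.146 SE, adjusted p = 0.0119), *slfl-4* (1.11 ± 0.288 SE, adjusted p = 0.0242) and *deps-1* (0.81 ± 0.222 SE, adjusted p = 0.0296). Against *rrf-3(pk1426)*, 1 of 23 was called, *glh-1*, which was lower (−0.64 ± 0.105 SE, adjusted p = 0.00773). The interaction was called and negative for 8 of 23 genes (background 15.7% lower), led by *glh-1* (−1.81 ± 0.155 SE, adjusted p = 3.28e-04), *tofu-4* (−1.67 ± 0.303 SE, adjusted p = 0.00694), *deps-1* (−1.68 ± 0.332 SE, adjusted p = 0.00949) and the *pid-2* partner *pid-5* (−1.59 ± 0.356 SE, adjusted p = 0.0151). Of the members, 3 of 4 were called for the interaction, 1 positive and 2 negative (background 37.2%, with 21.5% positive and 15.7% negative).

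**Figure D4:**
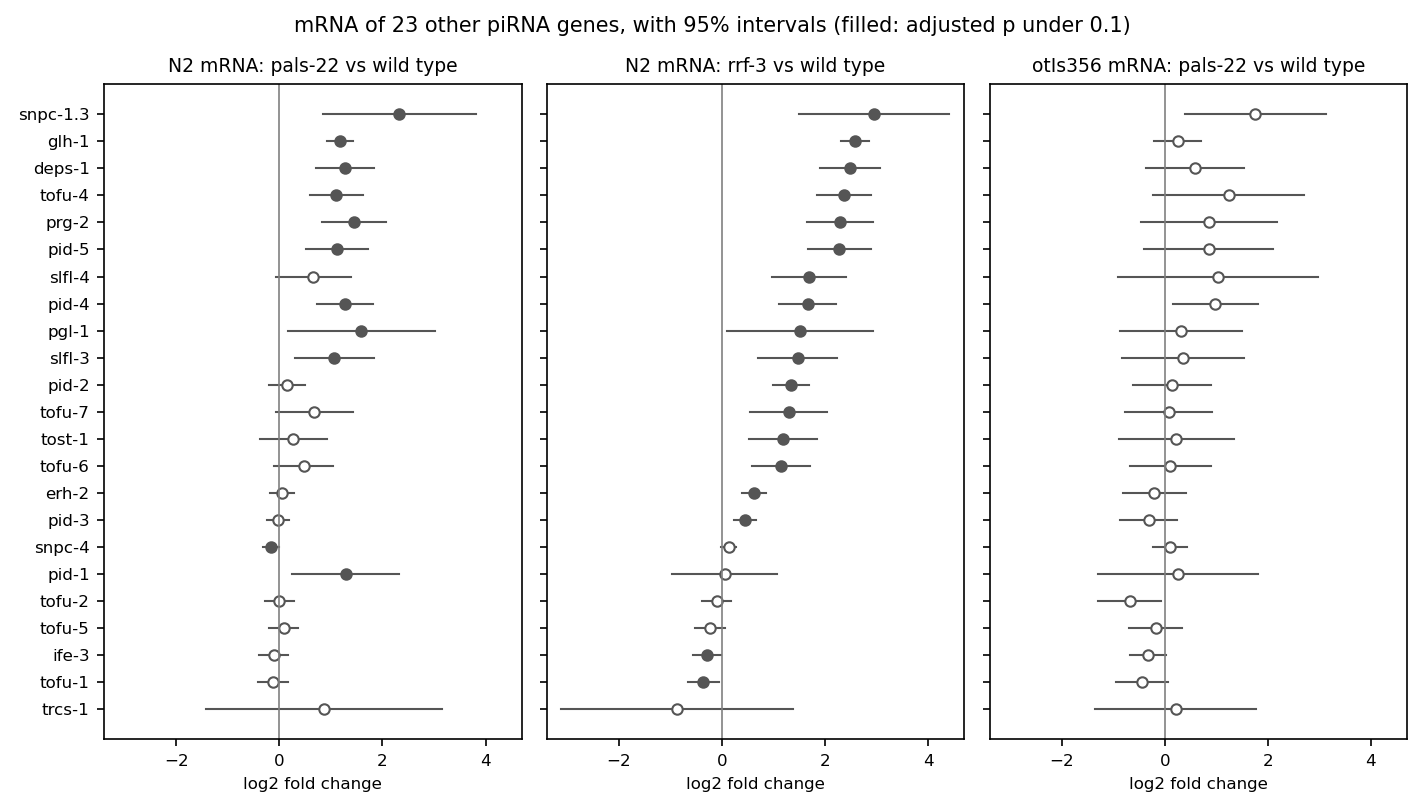
Log2 fold change (horizontal axes) with 95% intervals of 23 further piRNA genes (rows, ordered by the middle panel) for *pals-22(pig26)* and *rrf-3(pk1426)* against wild type in N2 mRNA and for *pals-22(pig26)* against wild type in *otIs356* mRNA, filled where the adjusted p was under 0.1. The N2 panels share their wild-type libraries and hold 11 and 18 filled points, and the *otIs356* panel holds 0.

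In *otIs356* mRNA, edgeR called 0 of these 23 genes in any comparison under the design used throughout. For *pals-22(pig26)* against wild type the median was 0.22, 3 genes had an unadjusted p under 0.05, and DESeq2 called 3 and limma-trend 0. For the double mutant against *vsra-1(tm1637)* these counts were 2, 2 and 0, and they were 0 in the other 3 comparisons. Of all 16724 genes, 4529 and 3834 had an unadjusted p under 0.05 in the first and second of these comparisons. edgeR with library totals alone called 1 gene in the double mutant against *vsra-1(tm1637)*. The smallest adjusted p for the double mutant against *vsra-1(tm1637)* belonged to *ife-3*, an eIF4E of the precursor processing complex, at −0.45 ± 0.164 (SE, adjusted p = 0.123), and for *vsra-1(tm1637)* against wild type to *tofu-7*, at 0.55 ± 0.362 (SE, adjusted p = 0.573). In sRNA, 9 of 23 were higher in *pals-22(pig26)* than in wild type in N2 (background 18.3%) and 3 of 23 in *otIs356* (11.7%), with 0 lower in either. With library totals alone 20 of 23 were called in either direction in N2, where 5623 of all 7243 genes were, and 4 in *otIs356*. The count of 20 is therefore not read as particular to these genes. Without the filter 7 were called in N2 and 1 in *otIs356*, where 2655 of all genes were. *snpc-1.3*, which promotes piRNA transcription in the male germline and was picked here after its values were seen, was called higher in both backgrounds under the design used throughout, at 1.39 ± 0.153 (SE, adjusted p = 2.10e-05) and 1.48 ± 0.146 (SE, adjusted p = 5.43e-06).

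Germ cell markers also differed between the N2 genotypes. The 9 germ cell markers summed to 29.2 to 37.4 CPM in the double mutant, 19.4 to 26.4 CPM in *pals-22(pig26)*, 40.2 to 45.5 CPM in *rrf-3(pk1426)* and 8.55 to 12.8 CPM in wild type. Against wild type, 8 of 9 were called higher in *rrf-3(pk1426)* (background 31.9%) and 6 of 9 in *pals-22(pig26)* (background 23.3%). By this sum the genotypes followed the same order as *prg-1*, without overlap. *parn-1* followed this order in its means, with overlap between *pals-22(pig26)* and wild type. Those means were 5.15 CPM in *rrf-3(pk1426)*, 4.87 CPM in the double mutant, 3.14 CPM in *pals-22(pig26)* and 2.45 CPM in wild type. *prde-1*, which was highest in *pals-22(pig26)* on average, and *henn-1*, which was lowest there, did not follow the order. 3 of the 9 (*glh-1*, *deps-1* and *pgl-1*) are also in the piRNA list. In *otIs356* the same sum was 19.01 to 43.9 CPM in the double mutant, 29.1 to 37.1 CPM in *pals-22(pig26)*, 18.5 to 47.2 CPM in *vsra-1(tm1637)* and 19.3 to 32.05 CPM in wild type, with overlap between all genotypes. None of the 9 was at 0 in all libraries of any genotype, and their part in the members' differences was not tested.

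Sperm and oocyte markers were detected as well. The 5 sperm markers summed to 1.46 to 35.1 CPM in the N2 double mutant, 42.98 to 137 CPM in *pals-22(pig26)*, 2.16 to 4.09 CPM in *rrf-3(pk1426)* and 5.44 to 12.2 CPM in wild type, and the 5 oocyte markers to 5.16 to 27.6, 7.41 to 16.6, 5.19 to 5.697 and 2.31 to 11.04 CPM in the same order. Against wild type, 4 of 5 sperm markers were called higher in *pals-22(pig26)* (background 23.3%, median log2 fold change 3.37), and 0 of 5 oocyte markers. Within the double mutant, *pals-22(pig26)* and wild type, libraries ranked by the sperm sum as they did by *prde-1*. *rrf-3(pk1426)*, however, lay below wild type in that sum and above it in *prde-1*. Without the library highest in oocyte markers of each of the double mutant, *pals-22(pig26)* and wild type, *prg-1* in the double mutant against *pals-22(pig26)* was at 0.50 (adjusted p = 0.171), *prde-1* at −0.98 (adjusted p = 0.191) and *henn-1* at 0.39 (adjusted p = 0.141). That fit left 1 double-mutant and 1 wild-type library, with the spread taken from the other genotypes, so no call is read from it. The part of sperm and oocyte RNA in these values was not tested.

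Some markers of somatic tissues and yolk were called between genotypes too. In N2 *rrf-3(pk1426)* against wild type (background 31.9% higher and 35.8% lower), 3 of 3 muscle markers were lower, with sums of 667 to 944 CPM against 1375 to 2108 CPM. Of the neuron markers 3 of 4 were lower and 1 higher, with overlapping sums of 552 to 576 CPM against 535 to 572 CPM, and 3 of 3 yolk markers were lower, with sums of 0.458 to 0.948 CPM against 2.29 to 9.48 CPM. In N2 *pals-22(pig26)* against wild type (background 23.3% higher and 27.8% lower), 3 of 4 hypodermis markers were higher and 1 lower, 2 of 4 intestine markers were higher and 2 lower, and 0 of 3 muscle markers were called. In the N2 double mutant, 3 of 4 hypodermis markers were lower than in *pals-22(pig26)* (background 17%), and 3 of 3 yolk markers were higher than in *rrf-3(pk1426)* (background 5.25%). In *otIs356*, 2 of 3 muscle markers were lower in *pals-22(pig26)* than in wild type (background 5.1%), with sums of 1402 to 1758 CPM against 3125 to 4222 CPM. With 3 or 4 markers per set and these backgrounds, the N2 counts against wild type are not read as particular to a tissue. The part of these markers in the members' values was not tested.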

How the data were processed

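Poly(A) mRNA and polyphosphatase-treated sRNA of L1 larvae were sequenced. For mRNA the authors deposited estimated counts made with kallisto, which were rounded to whole numbers here. sRNA reads were cut to remove adapters (cutadapt) and aligned to ce11 by the authors, who deposited read counts per gene made with featureCounts. Samples were grouped by the labelled genotype. Each table was fitted as a whole in edgeR 4.0.16 (R 4.3.3) with TMM factors and the quasi-likelihood test, after filterByExpr (count 10, total 15) for mRNA and a minimum of 5 RPM in at least 1 library for sRNA, and p values were adjusted after Benjamini and Hochberg over the genes of a comparison, with a threshold of 0.1. The interval printed with a log2 fold change is a 95% interval. Alternatives were library totals alone, DESeq2 1.42.0, limma-trend (limma 3.58.1, prior count 2), no filter, only the groups compared, a replicate block and leaving out each library. A block by the number in the library name, and fits without 3 libraries in each mRNA table, were chosen after seeing the data. In N2 mRNA some samples carry another number in the library name than in the title, and title numbers were used. Correlations of deviations from group means were compared between equal and different title numbers. Different numbers gave −0.24 to 0.282 in N2 mRNA and −0.552 to 0.465 in otIs356 mRNA. In N2 sRNA, equal numbers gave −0.0385 to 0.157 and different ones −0.0996 to 0.0981. In otIs356 sRNA, these ranges were −0.32 to 0.168 and −0.318 to 0.34. Fits were tested on simulated data. No library was a repeat of another of the same genotype and table within counting noise. Libraries of different genotypes were not compared in this way.

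The members and lists were chosen with earlier results of these data known. Genes of the piRNA list were to be named where called in *pals-22(pig26)* against wild type in both mRNA tables, which none was, and otherwise as the up to 4 with the smallest adjusted p in each other mRNA comparison. *snpc-4* and *snpc-1.3* were named after their values were seen. Also named were the 3 genes most like each member, of which 1 is not reported here. Columns of the authors' own comparisons were not used. 1 listed gene, tofu-3, was not matched and was not analysed here.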

Additional observations from a re-analysis of the deposited data

Results flagged for a closer look

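In N2 mRNA, the difference made by *pals-22(pig26)* with *rrf-3(pk1426)* present differed from that without it for 3 of the 4 members, by the interaction term of edgeR's quasi-likelihood test. The term was −0.90 for *prg-1* (adjusted p = 0.0172), −2.06 for *prde-1* (adjusted p = 0.0164) and 0.31 for *henn-1* (adjusted p = 0.0850), over 10 libraries in which wild type and the double mutant had 2 each. The background was 37.2% of 18986 genes. The *henn-1* term changed sign with library totals alone (−0.041, adjusted p = 0.886). Its call was also lost in DESeq2 (0.25, adjusted p = 0.272), without the filter (0.31, adjusted p = 0.113) and with the replicate block (0.26, adjusted p = 0.218). Most fits that left out a single library lost it as well. In 16 groups of 4 libraries (the values of 1 member in 1 genotype), the largest gap of an end library to its neighbour, as a share of the group's range, passed Dixon's 95% critical value 0 times. That reading concerns the members only, and not the 3 *otIs356* libraries that stood apart in *sqt-3*.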

How the results depend on the processing

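With library totals alone as the scale, the sign changed for *henn-1* N2 mRNA, the interaction (−0.041), *henn-1* N2 mRNA, double mutant against rrf-3(pk1426) (−0.12), *parn-1* N2 sRNA, pals-22(pig26) against wild type (0.11) and *prg-1* N2 sRNA, pals-22(pig26) against wild type (0.20). By that setting the sign changed for *parn-1* otIs356 sRNA, the interaction (−0.060), *henn-1* otIs356 sRNA, vsra-1(tm1637) against wild type (0.13), *prg-1* otIs356 sRNA, vsra-1(tm1637) against wild type (0.053) and *prg-1* otIs356 sRNA, double mutant against vsra-1(tm1637) (−0.0097). Likewise, a call was gained for *parn-1* N2 mRNA, the interaction (−0.79), *parn-1* N2 mRNA, pals-22(pig26) against wild type (0.54), *henn-1* N2 mRNA, rrf-3(pk1426) against wild type (0.49) and *henn-1* N2 sRNA, pals-22(pig26) against wild type (0.48). In addition, a call was gained for *prde-1* N2 sRNA, pals-22(pig26) against wild type (0.51), *henn-1* otIs356 mRNA, double mutant against vsra-1(tm1637) (0.62) and *parn-1* otIs356 sRNA, vsra-1(tm1637) against wild type (0.38). Under it a call was lost for *henn-1* N2 mRNA, pals-22(pig26) against wild type (−0.075), *prde-1* N2 mRNA, double mutant against pals-22(pig26) (−0.84), *parn-1* otIs356 sRNA, pals-22(pig26) against wild type (−0.20) and *parn-1* otIs356 sRNA, double mutant against vsra-1(tm1637) (−0.26). In DESeq2, the sign changed for *henn-1* otIs356 sRNA, double mutant against vsra-1(tm1637) (0.0056). There, a call was gained for *prg-1* otIs356 sRNA, pals-22(pig26) against wild type (−0.17), *parn-1* otIs356 sRNA, vsra-1(tm1637) against wild type (0.20) and *parn-1* otIs356 sRNA, double mutant against pals-22(pig26) (0.23). By that setting a call was lost for *henn-1* N2 mRNA, the interaction (0.25) and *henn-1* N2 mRNA, pals-22(pig26) against wild type (−0.22). With no filter, the sign changed for *prg-1* otIs356 sRNA, double mutant against vsra-1(tm1637) (−0.023). In addition, a call was lost for *henn-1* N2 mRNA, the interaction (0.31) and *parn-1* otIs356 sRNA, double mutant against vsra-1(tm1637) (−0.28). With the replicate number as a block, the sign changed for *prg-1* otIs356 sRNA, double mutant against vsra-1(tm1637) (−0.0075). Also, a call was lost for *henn-1* N2 mRNA, the interaction (0.26) and *prde-1* N2 mRNA, double mutant against pals-22(pig26) (−1.05). With the number in the library name as a block, a call was lost for *henn-1* N2 mRNA, the interaction (0.32) and *prde-1* N2 mRNA, double mutant against pals-22(pig26) (−0.82). Without the 3 libraries high in oocyte markers, the sign changed for *henn-1* N2 mRNA, rrf-3(pk1426) against wild type (−0.023). Likewise, a call was lost for *henn-1* N2 mRNA, the interaction (0.42), *henn-1* N2 mRNA, pals-22(pig26) against wild type (−0.33), *henn-1* N2 mRNA, double mutant against pals-22(pig26) (0.39) and *prde-1* N2 mRNA, double mutant against pals-22(pig26) (−0.98). In addition, a call was lost for *prg-1* N2 mRNA, double mutant against pals-22(pig26) (0.50). With only the groups compared in the fit, the sign changed for *henn-1* otIs356 sRNA, double mutant against vsra-1(tm1637) (0.00056). Also, a call was lost for *henn-1* N2 mRNA, pals-22(pig26) against wild type (−0.19), *prde-1* N2 mRNA, double mutant against pals-22(pig26) (−0.96) and *parn-1* otIs356 sRNA, double mutant against vsra-1(tm1637) (−0.24). Without the 3 libraries high in *dpy-7* and *sqt-3*, the sign changed for *henn-1* otIs356 mRNA, pals-22(pig26) against wild type (−0.049). By that setting a call was gained for *parn-1* otIs356 mRNA, pals-22(pig26) against wild type (0.91), *prde-1* otIs356 mRNA, pals-22(pig26) against wild type (1.93), *parn-1* otIs356 mRNA, double mutant against vsra-1(tm1637) (0.90) and *prg-1* otIs356 mRNA, double mutant against vsra-1(tm1637) (0.96). In limma-trend, a call was gained for *prg-1* otIs356 sRNA, pals-22(pig26) against wild type (−0.19) and *parn-1* otIs356 sRNA, double mutant against pals-22(pig26) (0.22).

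Leaving out each library in turn changed a sign or a call, over the lowest and highest log2 values given, for *henn-1* N2 mRNA, the interaction (0.26 to 0.37), *parn-1* N2 mRNA, the interaction (−0.76 to −0.16), *henn-1* N2 mRNA, pals-22(pig26) against wild type (−0.32 to −0.20) and *parn-1* N2 mRNA, pals-22(pig26) against wild type (0.085 to 0.68). They did so for *henn-1* N2 mRNA, rrf-3(pk1426) against wild type (−0.036 to 0.095), *prde-1* N2 mRNA, rrf-3(pk1426) against wild type (0.89 to 1.298), *henn-1* N2 mRNA, double mutant against pals-22(pig26) (0.31 to 0.38) and *parn-1* N2 mRNA, double mutant against pals-22(pig26) (0.58 to 0.69). A sign or call also changed for *prde-1* N2 mRNA, double mutant against pals-22(pig26) (−1.24 to −0.72), *prg-1* N2 mRNA, double mutant against pals-22(pig26) (0.45 to 0.64), *parn-1* otIs356 mRNA, the interaction (−0.42 to 0.21) and *henn-1* otIs356 mRNA, pals-22(pig26) against wild type (−0.041 to 0.093). The same applied to *parn-1* otIs356 mRNA, pals-22(pig26) against wild type (0.66 to 0.92), *prde-1* otIs356 mRNA, pals-22(pig26) against wild type (0.99 to 1.94), *prg-1* otIs356 mRNA, pals-22(pig26) against wild type (−0.040 to 0.19) and *prg-1* otIs356 mRNA, vsra-1(tm1637) against wild type (−0.43 to 0.10). Further ranges were those of *parn-1* otIs356 mRNA, double mutant against pals-22(pig26) (−0.029 to 0.36), *prde-1* otIs356 mRNA, double mutant against pals-22(pig26) (−0.19 to 0.72), *parn-1* otIs356 mRNA, double mutant against vsra-1(tm1637) (0.37 to 1.01) and *prde-1* otIs356 mRNA, double mutant against vsra-1(tm1637) (−0.17 to 0.80). A sign or call also changed for *parn-1* otIs356 sRNA, the interaction (−0.0064 to 0.082), *henn-1* otIs356 sRNA, pals-22(pig26) against wild type (−0.29 to −0.062), *prg-1* otIs356 sRNA, pals-22(pig26) against wild type (−0.25 to −0.14) and *prde-1* otIs356 sRNA, vsra-1(tm1637) against wild type (−0.062 to 0.095). They did so for *henn-1* otIs356 sRNA, double mutant against pals-22(pig26) (−0.00095 to 0.23), *parn-1* otIs356 sRNA, double mutant against pals-22(pig26) (0.18 to 0.28), *henn-1* otIs356 sRNA, double mutant against vsra-1(tm1637) (−0.057 to 0.042) and *parn-1* otIs356 sRNA, double mutant against vsra-1(tm1637) (−0.29 to −0.19). The last was *prg-1* otIs356 sRNA, double mutant against vsra-1(tm1637) (−0.031 to 0.058).

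The number of genes called among all tested moved over 1.5 times in N2 mRNA, interaction (7054 called, 2092 without the 3 oocyte-high libraries), N2 mRNA, pals-22(pig26) against wild type (9702 called, 5969 without the 3 oocyte-high libraries) and N2 mRNA, double mutant against pals-22(pig26) (6752 called, 2743 without the 3 oocyte-high libraries). It also did in N2 mRNA, double mutant against rrf-3(pk1426) (1415 called, 575 without the 3 oocyte-high libraries and 2341 without rrf-3(pk1426) replicate 3), N2 sRNA, pals-22(pig26) against wild type (2835 called, 5623 with library totals alone) and otIs356 mRNA, interaction (1 called, 56 in DESeq2). So it did in otIs356 mRNA, pals-22(pig26) against wild type (1820 called, 628 without pals-22(pig26) replicate 2 and 7865 without the 3 sqt-3-high libraries), otIs356 mRNA, vsra-1(tm1637) against wild type (1 called, 911 in DESeq2) and otIs356 mRNA, double mutant against pals-22(pig26) (1 called, 51 in DESeq2). The same held for otIs356 mRNA, double mutant against vsra-1(tm1637) (1825 called, 734 with only the groups compared and 7106 without the 3 sqt-3-high libraries), otIs356 sRNA, vsra-1(tm1637) against wild type (399 called, 237 without vsra-1(tm1637) replicate 3 and 960 with library totals alone) and otIs356 sRNA, double mutant against vsra-1(tm1637) (1821 called, 1015 without double-mutant replicate 1). Only extremes are given. By title number, deviations from group means correlated at −0.282 to 0.188 in N2 mRNA and −0.247 to 0.492 in otIs356 mRNA. Different numbers overlapped these ranges, and N2 mRNA library names differ in number from titles, so pairing was not settled. The block is given as a value only. Under it, calls among the 23 other piRNA genes of otIs356 mRNA rose from 0 to 4 in *pals-22(pig26)* against wild type. They rose from 0 to 1 in the double mutant against *vsra-1(tm1637)*. In N2 mRNA they fell from 10 to 6 in the double mutant against *pals-22(pig26)*. N2 mRNA fits without a wild-type or double-mutant library, or the 3 oocyte-high ones, left 1 in such a genotype, assumed to vary like the others. The cause of these changes was not tested, and the 2 wild-type and 2 double-mutant libraries of N2 mRNA and the low *prde-1* counts limit the precision.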
